A study of Mus musculus with 2 samples.

Results

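Heme synthesis and export were followed through 9 listed mouse genes: the enzyme genes Alas1, Alas2, Alad, Uros, Urod, Cpox, Ppox and Fech, and the exporter gene Flvcr1. They are 9 of the 18193 genes named on the array, and 21 of its 34945 probe sets with a single gene name (a probe set is a group of short probes for the same transcript). The list was chosen by pathway with results of these arrays known, and the measured values behind that choice are the same differences between the arrays, with Alas1 and Flvcr1 already seen to be low. The differences of its members are therefore descriptions and carry no test. Not every enzyme of the pathway is analysed here. The RNA came from livers of C57BL/6J mice aged 2 months. Each mouse had received 1000000000 plaque-forming units of adenovirus through the tail vein, either an empty vector (Ad-control) or one that overexpresses PDK4 (Ad-PDK4), and livers were taken 3 days later. PDK4 is a mitochondrial kinase that switches off the pyruvate dehydrogenase complex. Both groups were therefore infected, and no uninfected liver is part of the comparison. The sources used here do not give the promoter that drives PDK4 in the vector. Livers of 4 mice (Ad-control) and of 3 mice (Ad-PDK4) were combined, and each pool was hybridized to 1 array, so there is n = 1 per group, no spread between mice and no p-value.

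Heme is an iron-bearing ring that is built partly in the mitochondrion and partly in the cytosol. Aminolevulinate synthase joins glycine to succinyl-CoA, later enzymes assemble and oxidize the ring, and ferrochelatase inserts the iron. In liver the synthase is the product of Alas1, it sets the pace of the pathway, and its gene is repressed by heme and induced, along with P450 genes, by many drugs. In red cell precursors the same reaction is carried by Alas2. Heme can leave the cell through the exporter encoded by Flvcr1.

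The stretches of DNA before the starts of Alas1, Alas2 and Flvcr1 are shown because these genes had the lowest differences of the 9, and because the synthase genes are the liver and the erythroid form of the same enzyme. They come from RefSeq (GRCm38.p6), where 8 of the 9 genes had a start window of 250 bases before to 50 bases after the start. Each of the following is the 250 bases before an annotated start, written along the gene, with capitals at every match to the motifs searched. The Alas1 stretch is chr9:106247955-106248204 on the minus strand, the Alas2 stretch chrX:150547167-150547416 on the plus strand and the Flvcr1 stretch chr1:191026191-191026440 on the minus strand.
Alas1: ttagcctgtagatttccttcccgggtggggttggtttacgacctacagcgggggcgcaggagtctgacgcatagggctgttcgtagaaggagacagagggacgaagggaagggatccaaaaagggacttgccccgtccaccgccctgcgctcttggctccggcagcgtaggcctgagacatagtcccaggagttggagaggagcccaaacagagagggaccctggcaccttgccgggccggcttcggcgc
Alas2: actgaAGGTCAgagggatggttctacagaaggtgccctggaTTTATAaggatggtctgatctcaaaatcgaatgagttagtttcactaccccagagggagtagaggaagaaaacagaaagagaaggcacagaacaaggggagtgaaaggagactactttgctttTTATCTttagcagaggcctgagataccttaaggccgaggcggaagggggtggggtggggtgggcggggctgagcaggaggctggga
Flvcr1: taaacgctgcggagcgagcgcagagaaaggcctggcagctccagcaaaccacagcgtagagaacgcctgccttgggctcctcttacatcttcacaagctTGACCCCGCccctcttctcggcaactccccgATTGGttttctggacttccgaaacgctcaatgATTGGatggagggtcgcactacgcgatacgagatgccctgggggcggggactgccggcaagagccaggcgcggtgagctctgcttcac

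The Alas1 stretch held 62.4% G and C and the Flvcr1 stretch 60.4%, against 51.2% for Alas2 and a median of 52.4% over 32851 start windows. Both strands were searched for 11 motifs. A site of NRF1 (nuclear respiratory factor, a regulator of nuclear genes for mitochondrial proteins), spelled CGCATGCG, was found only at Alas1 among the 8 genes, and in 2.07% of all 27025 genes with a window. It begins 30 bases after the annotated start that follows the Alas1 stretch and 194 bases before a second annotated start of Alas1. The match is shown in capitals with its flanks, at chr9:106247906-106247935 on the minus strand.
Alas1 site: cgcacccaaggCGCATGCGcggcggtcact

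Alas2 held a GATA match (AGATAA on the other strand, 86 bases before the start, found in 12.7% of genes), a TATAAA match on the other strand 209 bases before it (15.7%) and AGGTCA, the core of many nuclear receptor sites (18.1%). GATA factors direct erythroid genes. Flvcr1 held a match to the antioxidant response element TGACNNNGC (14.0% of genes) and CCAAT boxes (41.1%). The E-box CACGTG, the core bound by clock and related factors, was found at Alad, Urod and Uros and in 8.09% of genes. CCAAT was also found at Alad, Ppox and Urod, and AGATAA also at Cpox. No match to the FOXO motif GTAAACA (4.05% of genes), the cAMP response element TGACGTCA (2.03%), its part TGACGT (8.37%) or the KLF1 box CCACACCC (4.09%) lay in the windows of the 8 genes. These are matches of letters, and binding was not measured.

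Signals are linear intensities as the authors deposited them, with the same trimmed mean on both arrays. The floor below which a signal was not used is each array's 50th percentile, 93.4 for Ad-control and 99.9 for Ad-PDK4, and a difference is given only where both signals reached it. From here on the Ad-control value stands before the Ad-PDK4 value in each pair. Every difference is log2 of Ad-PDK4 over Ad-control, centred on the median probe set. Of the 21 probe sets of the 9 genes, 15 reached the floor on both arrays and 6 on neither, and every gene had at least 1 measured probe set. The only error scale is how far a gene's probe sets differ among themselves, a pooled SD of 0.35 (log2) over 4326 genes, which leaves out labelling, hybridization and the variation between mice. Liver markers were bright on both arrays. All 7 hepatocyte genes were within 1.5-fold, with a median difference of -0.096 between Cps1 (-0.34), of the urea cycle, and Alb (0.079), albumin. Over all genes measured, 5.20% were at least 1.5-fold lower and 9.21% higher, so nothing is read from this count. In the same Ad-PDK4 pool all 7 exocrine pancreas markers were at least 1.5-fold higher (9.21% of all genes). Their median was 3.31 and their summed signal 8431 against 67066, from Cela1 (2.47) to Ctrb1 (3.46). Of 6 measured proliferation markers 6 were at least 1.5-fold higher (9.21% of all genes). Their median was 3.58, from Rrm2 (1.65) to Cdc20 (5.13). Of 5 sinusoidal endothelium markers 1 was at least 1.5-fold higher (Pecam1, 0.71), where 9.21% of all genes measured were. Kdr was the lowest of them (-0.38), and their median was -0.046. The part of pancreas, proliferating and endothelial cells in the differences below was not tested. The 3'/5' signal ratio of beta-actin was 4.88 and 5.46, that of Gapdh 0.785 and 0.806, and that of pyruvate carboxylase 9.26 and 7.96. Spiked poly-A controls had a median difference of -0.54 and hybridization controls of -0.26, so a difference between these values and 0 changes sign if the controls are taken as the reference.

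Alas1 and Flvcr1 were the low genes of the Ad-PDK4 pool, and the other 7 genes lay within 1.5-fold. Of the 9 genes, 2 were at least 1.5-fold lower, where 5.20% of the 10389 genes measured on both arrays were, and 0 were at least 1.5-fold higher, where 9.21% were. The 2 low genes are among those the list was chosen for, so nothing is read from these shares. The median of the 9 differences was -0.033, and 0.015 over all genes measured. By sign, 6 of the 9 genes were below 0, as were 48.4% of all genes measured. In RNA from whole liver, fewer cells of a type and less RNA per cell cannot be told apart.

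**Figure D1:**
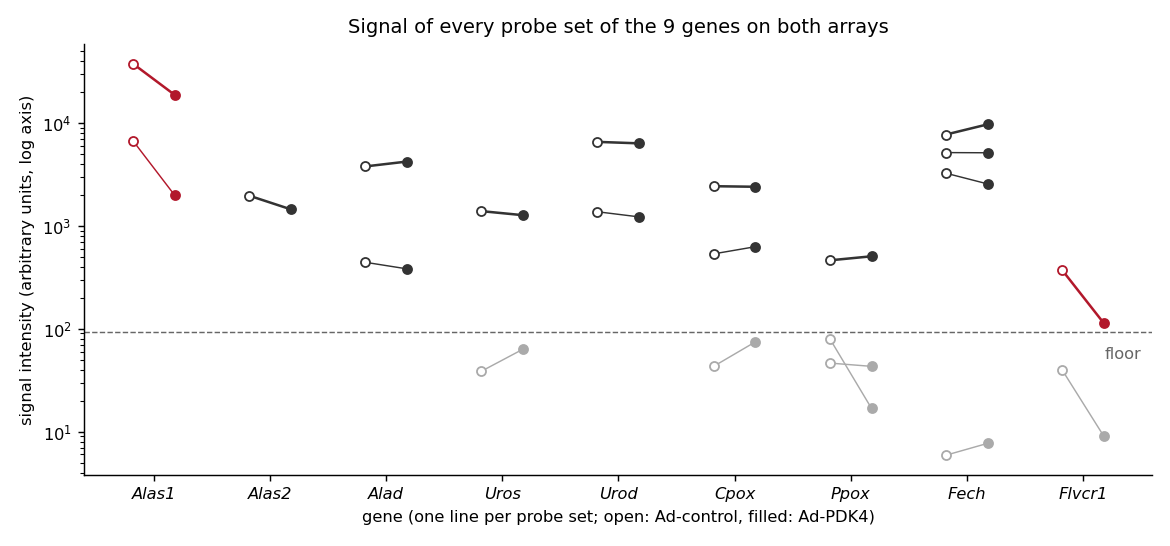
Signal intensity (log axis, arbitrary units) of all 21 probe sets of the 9 genes, with open circles for the Ad-control array, filled circles for the Ad-PDK4 array and 1 line per probe set. Thick lines mark the brightest probe set of a gene, grey lines are below the floor on both arrays, the dashed line is the Ad-control floor of 93.4, and the lines of Alas1 and Flvcr1 (red where measured) slope down while the other measured lines are close to level.

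Alas1, the rate-setting enzyme gene of the liver pathway, read 37836.5 (Ad-control) and 18797 (Ad-PDK4) with its brightest probe set (1424126_at). The Ad-PDK4 signal was 49.7% of the Ad-control signal, a log2 difference of -0.99. The other probe set (1455282_x_at, of a kind that can match several transcripts) read 6761.1 and 1989.4, a difference of -1.75. Both probe sets were lower, by amounts that differed by 0.76, and 12.3% of the 2596 genes with exactly 2 measured probe sets had a gap at least as wide. Alas1 was the 77th lowest of the 10389 genes, and the 7th lowest of the 2078 genes in the brightest quintile, whose differences had an SD of 0.35 and a median of -0.058. Both Alas1 signals lay far above the floor, and the other floors tried gave it -1.02 to -0.98. With the poly-A controls as the reference it was -0.45, short of 1.5-fold.

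Alas2, the erythroid form of the same enzyme, was measured by a single probe set (1451675_a_at), which read 1970.3 (Ad-control) and 1449.2 (Ad-PDK4). The difference of -0.43 is within 1.5-fold, and turned to 0.11 with the poly-A controls as the reference. Globin messages are carried by young red cells in the blood of the tissue. The array has 4 probe sets whose annotation lists several adult globin genes, looked at after the other values were seen. The alpha-globin ones read 40819.8 and 30002 (-0.43), 33435.7 and 24525.5 (-0.43), and 3662.6 and 1651.9 (-1.13), and the beta-globin one 26085.8 and 19229.1 (-0.43). Of the 4, 3 were within 1.5-fold with nearly the same difference as Alas2, and 1 was at least 1.5-fold lower. The part of blood in the Alas2 value was not tested.

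Few other red cell markers were measured on both arrays. Of 12 listed, 8 had a single-name probe set, and 5 of these were under the floor on both arrays, among them Slc4a1, the anion exchanger of red cells (55.8 and 64.6), Epb42, a protein of the red cell membrane skeleton (4.0 and 42.6), and the only single-name alpha-globin probe set, Hba-a1 (8.5 and 34.8). Klf1 (-0.24) and Epor (0.00060), a red cell transcription factor and the erythropoietin receptor, were the markers measured on both arrays, at 309.5 and 259.9 and at 166.4 and 164.8. Gata1, a GATA factor, reached the floor in the Ad-PDK4 pool only (72.1 and 132.6), with a bound of 0.52 on the higher side. With no floor, 4 of the 8 were at least 1.5-fold higher (21.4% of all genes) and 1 lower (16.8%), with a median of 0.53. Those values include the signals under the floor. The summed signal of the 8 markers was 660.2 and 756.9, a sum that includes the signals under the floor, so nothing is read from it.

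The cytosolic steps were close to level. Alad, whose enzyme makes porphobilinogen from aminolevulinate, read 3781.9 and 4220.5 (0.17) with its brightest probe set, and 443.1 and 382.2 (-0.20) with its other one. Its probe sets therefore lay on both sides of 0. Uros, whose enzyme closes the ring, read 1391.6 and 1270.5, a difference of -0.12. Its other probe set (38.6 and 63.4) was under the floor on both arrays. Urod, the decarboxylase that follows, read 6556.3 and 6342.3 (-0.033) and 1372 and 1222.5 (-0.15). All 3 genes were thus within 1.5-fold in each measured probe set.

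The final mitochondrial steps were within 1.5-fold in each measured probe set. Cpox, the coproporphyrinogen oxidase gene, read 2431.2 and 2400.6 (-0.0037) with the brightest probe set and 534.4 and 627.8 (0.25) with a dimmer one, and a last probe set (43.1 and 74.6) was under the floor. Ppox, the protoporphyrinogen oxidase gene, read 462.5 and 506.3, a difference of 0.15. The other Ppox probe sets (46.4 and 43.1, 80.2 and 16.8) were under the floor on both arrays, so the gap of the last has no usable size. Fech, ferrochelatase, was the highest of the 9 genes by its brightest probe set, which read 7724.4 and 9712.3, a difference of 0.34. Its other measured probe sets gave 0.0085 (5158.7 and 5137.1) and -0.33 (3252.1 and 2556.8), and a last one was under the floor (5.9 and 7.7). The direction of Fech is thus not settled by its probe sets. Of the 5 genes with more than 1 measured probe set, Alad, Cpox and Fech had them on both sides of 0, and Alas1 and Urod on the same side.

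Flvcr1, which encodes a heme exporter of the plasma membrane that is also known to carry choline, had the lowest difference of the 9 genes. Its measured probe set (1434424_at) read 372.7 (Ad-control) and 113.0 (Ad-PDK4), a difference of -1.71, or 30.3% of the Ad-control signal. The Ad-PDK4 signal was 1.13 times the floor. Flvcr1 was the 6th lowest of all 10389 genes, in the dimmest quintile, where differences had an SD of 0.53. The other probe set (1425399_at) read 39.9 and 9.0, under the floor on both arrays, and gives no fold. Under a higher floor, the 70th percentile (284.8 and 289.5), the gene has only a bound of -0.33, which is short of 1.5-fold. Macrophages recycle heme from red cells and were listed for that reason. Of 8 Kupffer cell and macrophage markers, 6 were measured on both arrays, with 2 at least 1.5-fold lower (5.20% of all genes) and 0 higher (9.21%). The lower ones were Vsig4, a complement receptor (567.2 and 246, -1.19), and Clec4f, a Kupffer cell lectin (277.6 and 125.9, -1.13). Cd5l (0.10), C1qa (0.12) and Adgre1 (0.21), the last the F4/80 antigen, were close to level. Cd163 (165.8 and 118.3, -0.47) was on the lower side within 1.5-fold. Marco reached the floor in the Ad-control pool only (141.6 and 91.5), with a bound of -0.49. Timd4 was under the floor on both arrays. The median of the 6 was -0.18, and the summed signal of the 8 was 3998 against 3674.2. Count and median depend on the floor. With the 30th percentile 3 of 7 were lower (median -0.49), as were 8.13% of all genes. With the 70th 0 of 3 were lower (median 0.14), as were 3.30% of all genes. With either set of spiked controls as the reference the median was above 0 (0.36 and 0.072). The part of these cells in the Flvcr1 value was not tested.

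**Figure D2:**
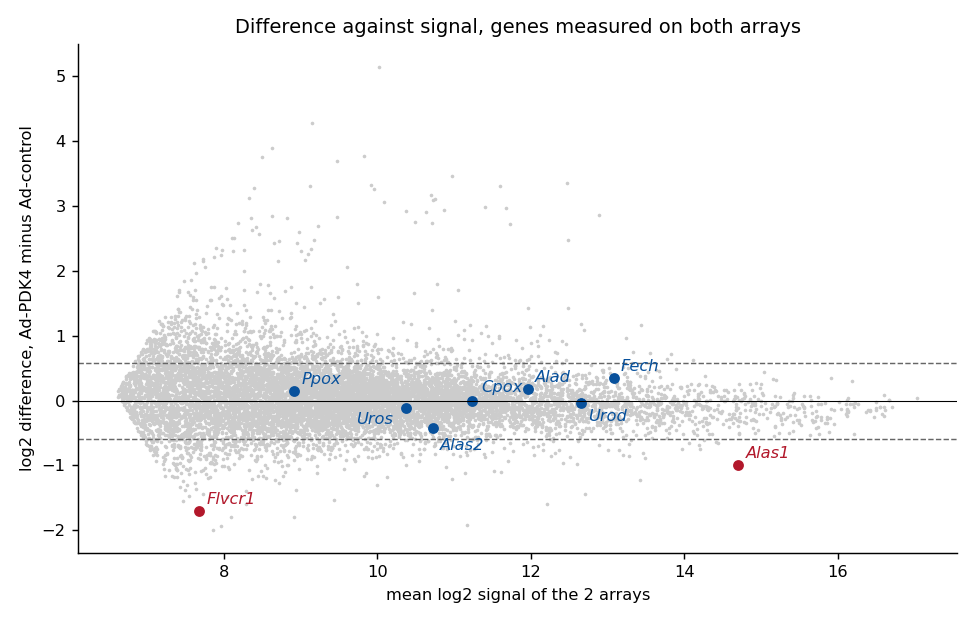
Log2 difference (Ad-PDK4 minus Ad-control) against the mean log2 signal of the 2 arrays for the 10389 genes measured on both (grey), each by its brightest probe set. The 9 genes are named, dashed lines mark 1.5-fold, and Alas1 (-0.99) and Flvcr1 (-1.71) lie below the lower line at opposite ends of the signal range.

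Other carriers of heme and porphyrins are given by their brightest probe sets. All 11 measured genes of this list were within 1.5-fold, with a median of 0.012. Over all genes measured, 5.20% were at least 1.5-fold lower and 9.21% higher, so nothing is read from this count. Abcb8 gave 0.46 with its brightest probe set and 0.66, past 1.5-fold, with its other one. By brightest probe set Flvcr2, the paralog of Flvcr1, was the highest (134.8 and 186.5, 0.48). Pgrmc1, a heme-binding membrane protein that associates with ferrochelatase, was the lowest (57966.9 and 46680.9, -0.30). Heme breakdown and capture was also within 1.5-fold in 10 of 10 measured genes, beside the same shares over all genes, with a median of -0.11. It ran from Cd163, the hemoglobin-haptoglobin receptor of macrophages (165.8 and 118.3, -0.47), to Blvrb, a biliverdin reductase (5995.3 and 6307.7, 0.088). Hmox1, the inducible heme oxygenase that heme itself induces, read 329.6 and 287.6, a difference of -0.18.

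Genes that supply substrate, iron or partner proteins to the first and last enzymes lay within 1.5-fold in 13 of 15 cases, with a median of -0.10. Of the 15, 1 was at least 1.5-fold lower (5.20% of all genes) and 1 higher (9.21%), so nothing is read from these counts. Slc25a37, mitoferrin, which brings iron into the mitochondrion, was 1.68-fold lower (1949.4 and 1148.5, -0.75). Tfrc, the transferrin receptor, was 1.79-fold higher (1348.3 and 2389.5, 0.84). The paralog Slc25a28, also a mitochondrial iron carrier, was close to level (633.3 and 641, 0.032). Slc25a38, a mitochondrial glycine carrier, read 616.8 and 729.9 (0.26), and Clpx and Lonp1, mitochondrial proteins that act on the Alas1 enzyme, gave -0.12 and 0.26. The other measured probe set of Clpx gave 0.11, so the direction of Clpx is not settled.

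The genes listed as regulators of Alas1 were chosen with earlier results of these data known. Of the 17 measured, 3 were at least 1.5-fold lower (5.20% of all genes) and 1 higher (9.21%). The median was -0.17, and nothing is read from these counts. Bach1, a heme-sensing repressor best known for repressing Hmox1, read 4295.3 and 1994.8 (-1.09), and its other measured probe set gave -0.68. Egr1, an immediate early factor, read 665.8 and 350.9 (-0.91). Ppargc1b, a coactivator of mitochondrial genes, read 1776.1 and 1168.3 (-0.59). Its relative Ppargc1a, the coactivator that raises Alas1 in fasting, read 448.5 and 297.1 and was just within 1.5-fold (-0.58), with 3 measured probe sets from -0.97 to -0.27. Nrf1, whose motif lies at the Alas1 start, was the gene on the higher side (205.5 and 323.7, 0.67), with probe sets from 0.030 to 0.67. Arntl, a core clock factor, fell short of the floor in the Ad-PDK4 pool only (192.2 and 82.7), with a bound of -0.93; 17.3% of the 785 genes seen only on the Ad-control array had a bound of 1.5-fold or more. Npas2, a heme-binding clock factor, was under the floor on both arrays. Nr1i3 and Nr1i2, the drug receptors that induce Alas1 together with P450 genes, gave -0.21 and -0.038, and Nr1d1, the heme receptor REV-ERB alpha, -0.36. The other measured probe set of Nr1i2 gave -0.82, past 1.5-fold, so the value of Nr1i2 also depends on the probe set. Rora and Clock had probe sets from -1.85 to -0.00040 and from -0.38 to 0.95, so that their values depend on the probe set.

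Genes of proteins that carry heme lay on both sides of 0. Of 31 measured genes, 2 were at least 1.5-fold lower (5.20% of all genes), 5 higher (9.21%) and 24 within 1.5-fold, with a median of -0.14. Suox, sulfite oxidase (3104.6 and 1721.2, -0.84), and Cyp4a14, a fatty acid hydroxylase (24577.1 and 14464.7, -0.75), were lower. The higher genes were Cyp2b9 (0.94), Cygb (0.90), Cyp8b1 (0.78), Cyp7b1 (0.73) and Cyp2c55 (0.70). Cygb is cytoglobin, Cyp8b1 and Cyp7b1 are hydroxylases of bile acid synthesis, and Cyp2b9 and Cyp2c55 belong to the drug-metabolizing families. Bright P450 genes within 1.5-fold included Cyp3a11 (-0.14), Cyp2e1 (-0.23), Cyp3a25 (-0.25), Cyp2f2 (-0.26) and Cyp2c29 (-0.42) on the lower side and Cyp4v3 (0.26) on the higher. Counts and medians of these lists depend on the reference. With the poly-A controls as the reference the medians below 0 turned positive and no gene of the 5 lists was 1.5-fold lower (0.395% of all genes). On the higher side were 12 heme proteins, 5 carriers, 4 supply genes, 3 regulators and 1 gene of breakdown and capture (46.7% of all genes). With the hybridization controls the medians were also above 0, with 2 regulators still 1.5-fold lower (1.63% of all genes). Higher were 6 heme proteins, 3 carriers, 1 supply gene and 1 regulator (21.2% of all genes). Nothing is read from these counts. The genes counted as at least 1.5-fold apart kept their sign, but with the poly-A controls the lower ones lost the call: Ppargc1b stood at -0.047, Slc25a37 at -0.21, Cyp4a14 at -0.21, Suox at -0.29, Egr1 at -0.37 and Bach1 at -0.55.

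**Figure D3:**
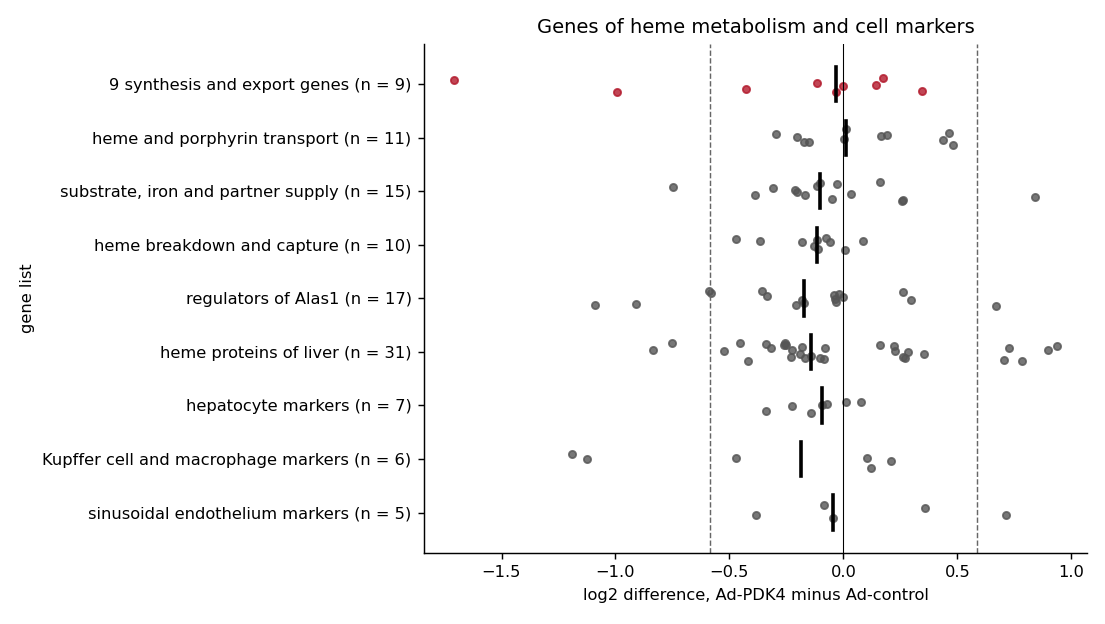
Log2 difference (Ad-PDK4 minus Ad-control) of the genes measured on both arrays in each list, 1 point per gene by its brightest probe set, with black bars at the list medians and dashed lines at 1.5-fold. The 9 genes (red) have a median of -0.033 with Alas1 and Flvcr1 to the left, and the medians of the other lists drawn lie between -0.18 and 0.012; exocrine pancreas, proliferation and red cell markers are not drawn.

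The 9 genes were also computed under 11 other processing settings. Alas1 ranged from -1.37 (median over its probe sets) to -0.45, and was below 0 in 11 of 11 settings. Flvcr1 ranged from -1.75 to the bound of -0.33, also below 0 in 11 of 11. Alas2 was below 0 in 10 of 11, while Ppox and Fech were above 0 in 11 of 11, from 0.12 and 0.0085 upward. Alad, Uros, Urod and Cpox took both signs.

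**Figure D4:**
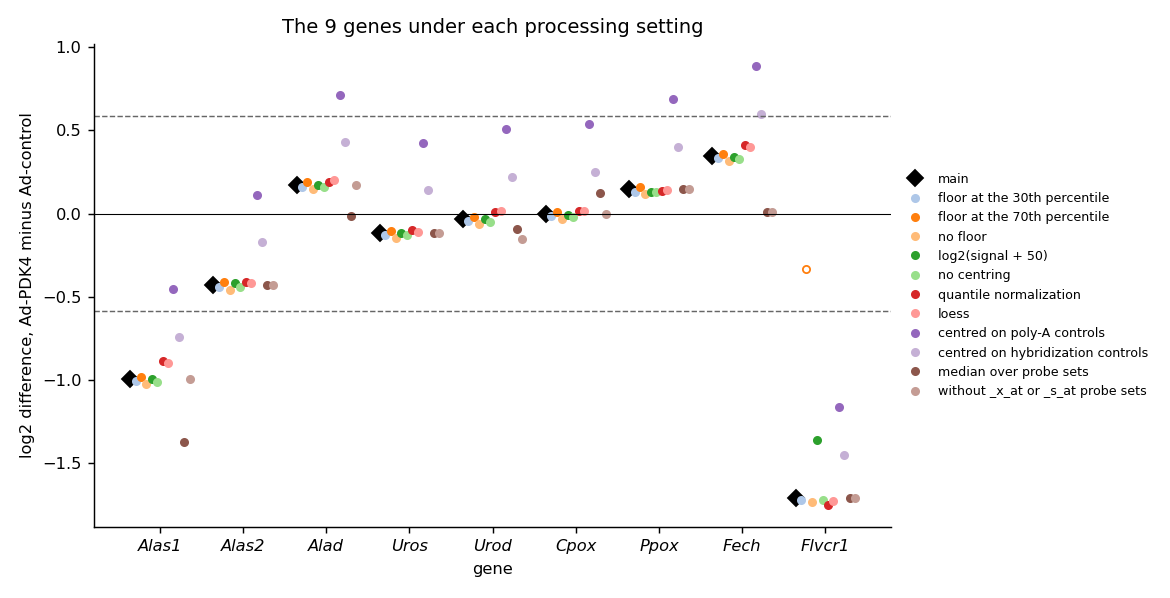
Log2 difference (Ad-PDK4 minus Ad-control) of the 9 genes in the setting used throughout (black diamonds, called main in the key) and in 11 others (circles; the open circle is a bound). Dashed lines mark 1.5-fold; Alas1 and Flvcr1 stay below 0 in all settings shown, and the purple circles, centred on poly-A controls, lie highest for every gene but Flvcr1.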

How the data were processed

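The authors deposited 1 table of linear signal intensity per probe set, made from biotin-labelled cRNA of 10 ug pooled RNA per the labels' protocols. The sources used here name no summary method or software. Trimmed of 2% at each end, the 45101 probe sets of either array average 500, as scaling to a common target gives. Gene names came from the platform annotation; 34754 of 34958 single-name probe sets were found in RefSeq (GRCm38.p6) by Entrez identifier. The 64 control probe sets were set aside. Differences were centred on the median of 20151 probe sets above the floor on both arrays (shift -0.015), and each gene was represented by its brightest probe set. Genes named are all 9 members, the genes at least 1.5-fold apart or else the extremes of each related list, and the extremes of each marker list; further genes were named for their role after their values were seen. The members and lists were chosen with earlier results of these data known. Calculations used Python 3.11.15, pandas 2.3.3 and, for loess, statsmodels 0.14.6, and were tested on simulated data. The 11 alternatives were a floor at the 30th or 70th percentile or none, log2(signal + 50), no centring, quantile or loess normalization, either set of spiked controls as the reference, the median over a gene's probe sets, and leaving out _x_at and _s_at probe sets. With 1 array per group, no test was run, and the number of arrays limits the precision.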

Additional observations from a re-analysis of the deposited data

How the results depend on the processing

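The count of members at least 1.5-fold lower was 2 in 9 of 11 alternatives and 1 in the others, namely under the 70th percentile floor, where Flvcr1 has only a bound, and under poly-A controls as the reference, where Alas1 is at -0.45. The count at least 1.5-fold higher was 0, but 3 with poly-A controls and 1 with hybridization controls as the reference. The members' median of -0.033 became 0.51 with poly-A controls. These references shift every gene alike, by 0.54 and 0.26. Over all 10389 genes measured, 540 were lower and 957 higher (5.20% and 9.21%). Under a 30th percentile floor the numbers were 1055 and 1730 of 12972 genes (8.13% and 13.3%). Under a 70th percentile floor they were 243 and 390 of 7365 (3.30% and 5.30%). With no floor they were 3065 and 3890 of 18193 (16.8% and 21.4%). Of 10389 genes they were 41 and 4856 with poly-A controls (0.395% and 46.7%) and 169 and 2202 with hybridization controls (1.63% and 21.2%). No paired analysis was possible because each group is 1 pooled array. Signals close to the floor limit Flvcr1; Alas1 is far above it.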
